A study of Mus musculus with 4 samples.

Results

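The genes described here are those that code for the chains of the collagens, the triple-helical proteins of the extracellular matrix, in the lung of mouse embryos with and without *Hmga2*. A gene was taken as a collagen chain gene when its symbol was Col, a number, the letter a and a number. Of the 19938 genes measured by a probe set that carries 1 symbol, 44 met this rule, through 46 probe sets. The brightest probe set over all arrays stood for a gene, which mattered for *Col6a5* and *Col6a6*, which had 2 probe sets each. The chains fell into 11 fibrillar genes, 8 genes of basement membrane collagens, 9 genes of the FACITs (fibril-associated collagens with interrupted triple helices) and 16 genes of other collagens.

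RNA was measured on Affymetrix arrays in whole lung at embryonic day 18.5, on 2 arrays of wild-type mice (WT, *Hmga2*+/+) and 2 arrays of *Hmga2*-KO mice (*Hmga2*-/-), all on the C57BL/6 background. *Hmga2* codes for a chromatin-binding high mobility group protein, and the knockout was constitutive, so every cell of the embryo carried it. The comparison asked which transcripts differ in the developing lung when *Hmga2* is absent. The series calls the 2 arrays of a group biological replicates, without saying how many embryos gave the RNA of an array.

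The probe set of *Hmga2* did not separate the genotypes. Its log2 values were 9.35 and 9.59 on the WT arrays and 9.65 and 9.39 on the arrays labelled KO. The KO values lay around the WT values, with a difference of 0.051 (SE 0.16, limma adjusted p = 0.892). Which part of the transcript the probe set covers, relative to the deleted part, is not stated in the sources read, so the genotype of the arrays rests on their labels. The arrays did not match each other equally well, since WT replicate 1 correlated with the other arrays at 0.976 to 0.985 over all probe sets, while every pair of the other arrays correlated at 0.992 or more. Markers of lung epithelium and mesenchyme were present on all arrays, with log2 values from 13.98 to 14.13 for the surfactant protein gene *Sftpc* and from 11.28 to 11.45 for *Pdgfra*.

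Collagens are built from 3 chains wound into a helix, and each type has its own chain genes. Fibrillar collagens form the banded fibrils that give tissue its tensile strength, type IV collagen forms the sheet-like network of basement membranes, and FACITs sit on the surface of fibrils. In the lung, the basement membranes of alveolar epithelium and capillary endothelium lie against each other or are fused where gas is exchanged, while fibrils fill the walls of airways, vessels and septa. The chains of type IV collagen are coded in head-to-head gene pairs transcribed away from each other from start sites that lie close together.

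Stretches at these starts are shown for the pairs *Col4a1* and *Col4a2* and *Col4a6* and *Col4a5*, together with the start of *Col18a1*, the collagen gene with the lowest p. RefSeq (GRCm38.p6) gave 38 windows, from 250 bases before to 50 bases after a start, for 35 of the 44 genes, with none for *Col4a3*, so the pair *Col4a3* and *Col4a4* is not shown. The transcripts of *Col4a1* and *Col4a2* overlap by 22 bases at their starts (chr8:11312805-11312826, plus strand), and the starts of *Col4a6* and *Col4a5* lie 1342 bases apart on chromosome X. The stretch before *Col4a5* is chrX:141475169-141475369 on the plus strand, that before *Col4a6* is chrX:141474096-141474326 on the minus strand, and that before the upstream start of *Col18a1* is chr10:77166531-77166780 on the minus strand. Capitals mark a CCAAT box (the letters CCAAT) or a GC box (the letters GGGCGG), read on either strand.
Col4a1 and Col4a2: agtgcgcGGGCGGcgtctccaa
Col4a5: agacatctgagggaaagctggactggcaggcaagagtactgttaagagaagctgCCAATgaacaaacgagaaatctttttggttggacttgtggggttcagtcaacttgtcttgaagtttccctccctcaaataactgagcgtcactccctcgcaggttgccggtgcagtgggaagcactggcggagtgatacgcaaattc
Col4a6: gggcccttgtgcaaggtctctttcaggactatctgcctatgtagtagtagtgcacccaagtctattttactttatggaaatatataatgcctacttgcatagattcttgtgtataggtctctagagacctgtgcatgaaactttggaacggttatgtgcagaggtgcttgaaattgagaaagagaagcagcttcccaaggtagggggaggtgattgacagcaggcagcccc
Col18a1: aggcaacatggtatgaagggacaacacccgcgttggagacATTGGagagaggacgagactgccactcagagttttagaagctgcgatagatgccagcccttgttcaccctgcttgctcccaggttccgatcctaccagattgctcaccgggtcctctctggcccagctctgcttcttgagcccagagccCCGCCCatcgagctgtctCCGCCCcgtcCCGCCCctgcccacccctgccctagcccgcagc

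The stretches before *Col4a5* and *Col4a6* leave out the last bases of the windows, which hold 1 GGGCGG for each gene. The stretch of *Col18a1* held 3 GC boxes and 1 CCAAT box, all in reverse orientation. The window at the downstream start of *Col18a1* held neither box. Over the whole windows of 300 bases, *Col4a1* held 1 CCAAT and 1 GGGCGG and *Col4a2* held 1 CCAAT and 3 GGGCGG, in windows that partly cover the same bases, while *Col4a5* held 1 of each and *Col4a6* held 1 GC box only. GGGCGG stood in 23 of the 38 collagen windows (60.5%), against 35.7% of all 32851 windows, and CCAAT in 13 (34.2%), against 37.4%. TATAAA stood in 5 (13.2%), against 13.6%, and CTTTGAT, the core bound by TCF and LEF factors, in 1 (2.63%), that of *Col9a2*, against 3.73%. The bases A and T, in runs of which HMGA proteins bind, made up a median of 40.2% of the collagen windows, against 47.3% of all windows, with a median longest run of 6 against 7 bases. Neighbouring genes share parts of windows, some genes have more than 1 window, and a match is only a match of letters.

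No collagen chain gene passed the test across all genes. At a limma adjusted p under 0.05, 0 of 44 were called higher in *Hmga2*-KO, against 0.0802% of all genes tested, and 0 of 44 were called lower, against 0.702%. The lowest adjusted p was 0.0573. At an unadjusted p under 0.05 there were 5 higher genes (*Col18a1*, *Col15a1*, *Col4a6*, *Col11a1* and *Col26a1*), against 5.88% of all genes, and 5 lower genes (*Col4a1*, *Col4a2*, *Col4a3*, *Col4a4* and *Col13a1*), against 8.58%. Of these 10 genes, 7 belonged to the 8 basement membrane genes.

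The collagen genes as a whole had no common direction. The mean was higher in *Hmga2*-KO for 19 genes and lower for 25, with a median log2 difference of -0.022. Over all 19938 genes it was higher for 8206 and lower for 11732, with a median of -0.050. Past 1.2-fold lay 7 genes with a higher mean, against 13.4% of all genes, and 7 with a lower mean, against 17.1%. On the KO arrays 15 genes were above both WT arrays, where 17.6% of all genes were, and 15 genes were below both, where 31.8% of all genes were. The remaining 14 genes overlapped between the genotypes. With 2 arrays against 2, an exact permutation test cannot give a two-sided p below 0.333, so the comparison leans on the spread pooled over all genes.

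**Figure D1:**
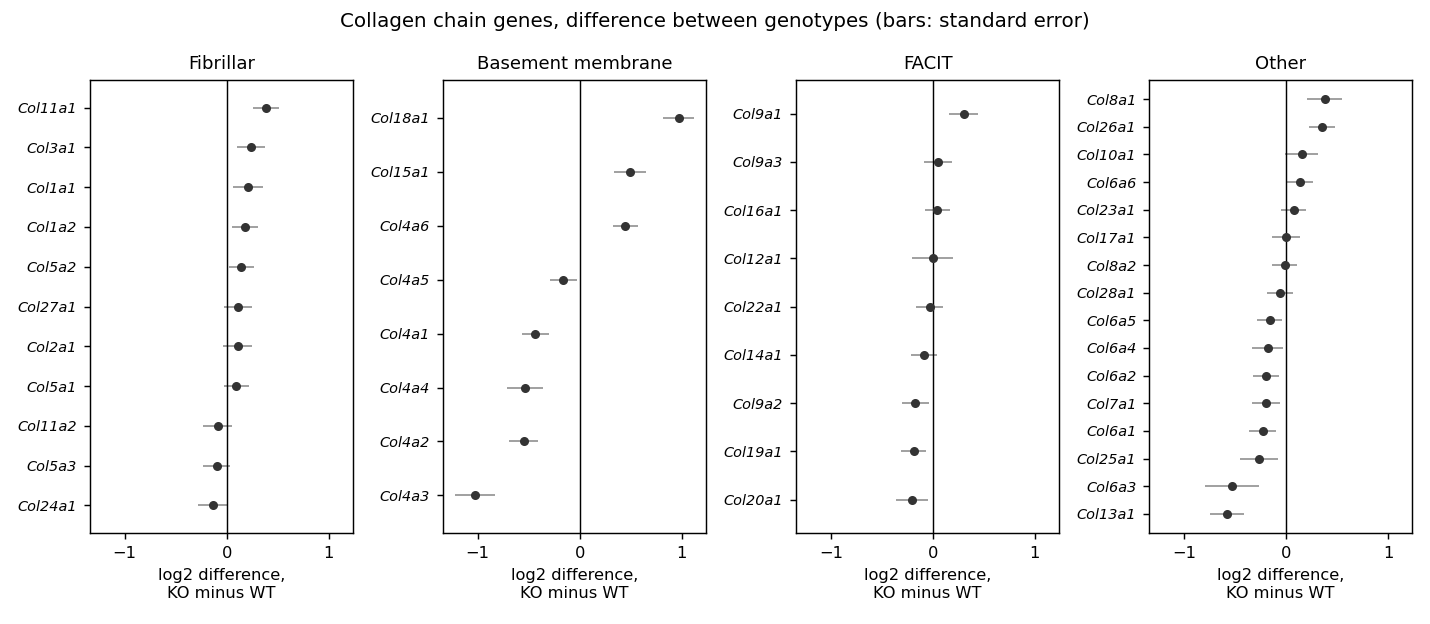
Log2 difference between *Hmga2*-KO and WT (horizontal axis) for each of the 44 collagen chain genes in 4 classes; points are differences of means over 2 arrays each and bars are limma standard errors. The basement membrane genes spread from -1.03 for *Col4a3* to 0.97 for *Col18a1*, while the fibrillar genes lie between -0.14 and 0.38.

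The basement membrane genes held the largest differences among the collagen genes, in both directions. The type XV and XVIII genes and *Col4a6* had higher means in *Hmga2*-KO, and the other type IV genes had lower means. In all 8 of these genes the KO arrays did not overlap the WT arrays, 3 lying above, as did 17.6% of all genes, and 5 below, as did 31.8%. The class had 3 genes past 1.2-fold with a higher mean (13.4% of all genes) and 4 with a lower mean (17.1%), and its median difference was -0.30. Type IV alone had a median of -0.48 over 6 genes.

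*Col18a1* (probe set 10370259) codes for the chain of type XVIII collagen, a heparan sulfate proteoglycan of basement membranes whose end is released as endostatin. Its log2 values were 9.51 and 9.82 on the WT arrays and 10.62 and 10.66 on the KO arrays. Both KO arrays stood clear of both WT arrays, and the KO arrays were closer to each other than the WT arrays were. The difference was 0.97 (SE 0.15), a 1.96-fold higher mean, with a limma adjusted p of 0.0573. With 1 array left out, the difference ran from 0.81 without WT replicate 1 to 1.13 without WT replicate 2. *Col15a1* codes for the related chain of type XV, which links basement membrane to the fibrils beneath it. Its values were 9.46 and 9.82 in WT and 10.12 and 10.13 in *Hmga2*-KO, a difference of 0.49 (SE 0.16, limma adjusted p = 0.242). The order of the arrays was the one seen for *Col18a1*, with WT replicate 1 lowest, WT replicate 2 next and the KO arrays together at the top.

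*Col4a1* and *Col4a2* code for the chains of the most widespread type IV network, found in almost every basement membrane. *Col4a1* had values of 11.22 and 11.08 in WT and 10.69 and 10.74 in *Hmga2*-KO. *Col4a2* had values of 11.34 and 11.11 in WT and 10.65 and 10.69 in *Hmga2*-KO. For both genes the arrays stood in the order WT replicate 1, WT replicate 2, KO replicate 2, KO replicate 1, from high to low. The differences were -0.44 (SE 0.13, limma adjusted p = 0.211) for *Col4a1* and -0.55 (SE 0.14, limma adjusted p = 0.157) for *Col4a2*.

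*Col4a3* and *Col4a4* code for chains that assemble with the chain of *Col4a5* into the network of kidney glomeruli and of alveolar basement membrane, which is lost in Alport syndrome. *Col4a3* (probe set 10347807) had values of 9.31 and 8.79 in WT and 8.11 and 7.94 in *Hmga2*-KO. Its difference of -1.03 (SE 0.20, limma adjusted p = 0.0859) was the largest in size among the collagen genes, the WT mean being 2.04-fold above the KO mean. The gap between WT replicate 2 and KO replicate 1 was wider than the distance between the WT arrays. *Col4a4* had values of 8.81 and 8.38 in WT and 7.98 and 8.14 in *Hmga2*-KO, a difference of -0.53 (SE 0.18, limma adjusted p = 0.253). For *Col4a4* the WT arrays lay farther from each other than WT replicate 2 lay from the nearer KO array.

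The genes of the X-linked pair had differences of opposite sign. *Col4a5* had values of 9.10 and 8.96 in WT and 8.82 and 8.91 in *Hmga2*-KO, a difference of -0.16 (SE 0.13, limma adjusted p = 0.585). *Col4a6*, whose chain joins that of *Col4a5* in basement membranes of bronchi and smooth muscle, had values of 7.55 and 7.59 in WT and 8.05 and 7.98 in *Hmga2*-KO, a difference of 0.45 (SE 0.13, limma adjusted p = 0.188). The *Col4a6* arrays of each genotype lay close together with a clear gap between genotypes, while the *Col4a5* values nearly met. Since the pair is on chromosome X, the sex-linked probe sets are given beside it: *Xist* ran from 5.39 to 5.68 and Y-linked *Eif2s3y* from 9.42 to 10.22 over the 4 arrays, with limma adjusted p of 0.498 and 0.341. The part of embryo sex in the values of the pair was not tested.

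**Figure D2:**
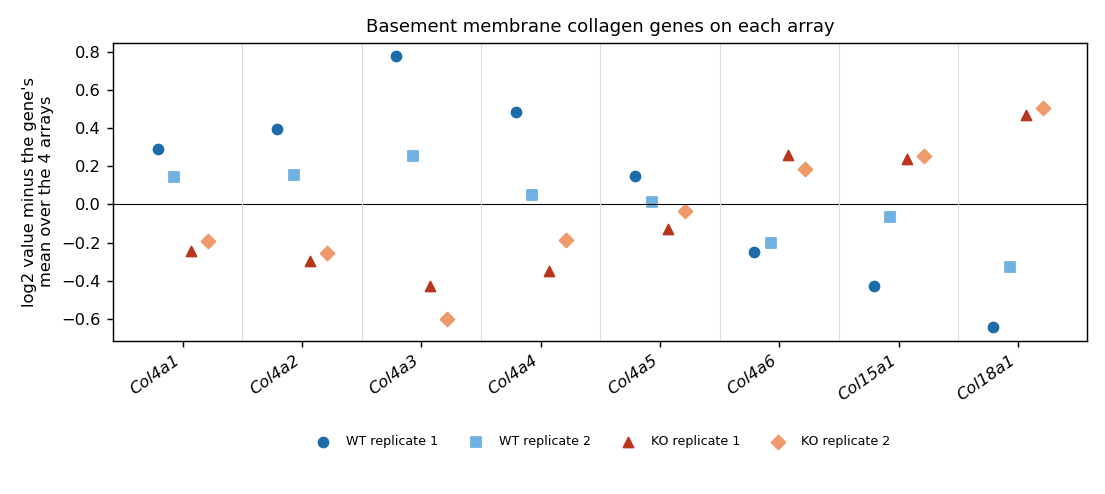
Log2 value of each basement membrane collagen gene on each array minus the mean of that gene over the 4 arrays (vertical axis); circles and squares are WT arrays, triangles and diamonds KO arrays. In *Col4a1* to *Col4a5* both WT arrays are above both KO arrays, and in *Col4a6*, *Col15a1* and *Col18a1* both are below; for all 8 genes WT replicate 1 is the WT array farther from the KO arrays.

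Markers of the cell types that make these matrices are given beside the class. Of 8 endothelial markers 7 had lower means in *Hmga2*-KO, against 11732 of all 19938 genes, with a median difference of -0.26. The summed level of the list, as log2 of the summed linear values, was 14.93 and 15.02 on the WT arrays and 14.69 and 14.61 on the KO arrays. Among its defining genes, *Pecam1* differed by -0.25, *Cdh5* by -0.27 and *Cldn5* by -0.72 (limma adjusted p = 0.0873 for *Cldn5*). Of 8 epithelial markers 6 had higher means, against 8206 of all 19938 genes, with a median difference of 0.086. *Epcam* at 0.69, *Esrp1* at 0.66 and *Cldn4* at 0.46 had the lowest p (unadjusted p under 0.05, limma adjusted p = 0.149 to 0.330). The other epithelial markers differed less: *Nkx2-1* by 0.11, *Krt18* by 0.065, *Cdh1* by 0.017, *Krt8* by -0.089 and *Sftpc* by -0.096. The sum of the 8 markers, to which *Sftpc* gives much, ran from 15.15 to 15.19 in WT and from 15.17 to 15.19 in *Hmga2*-KO. Of 6 mesothelial markers 4 had lower means, with a median difference of -0.090 and with *Wt1* at 0.069 and *Upk3b* at -0.049. Their summed level, to which *Msln* gave much in WT, was 12.69 and 12.63 in WT and 12.20 and 12.00 in *Hmga2*-KO. *Msln* itself fell by 1.42 (limma adjusted p = 0.0303). The part of these cell types in the collagen values was not tested, and in RNA of a whole lung fewer cells of a type and less RNA per cell cannot be told apart.

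The shared position of collagen genes allowed a comparison within each array. Among the collagen genes, 8 pairs follow each other on a chromosome with no other protein-coding gene between them, and for each the log2 ratio of both genes was taken on each array. The ratio of *Col4a1* to *Col4a2* differed by 0.12 between the genotypes, from -0.12 and -0.031 on the WT arrays to 0.034 and 0.047 on the KO arrays. The ratio of *Col4a6* to *Col4a5* differed by 0.61, from -1.55 and -1.37 to -0.77 and -0.93, and that of *Col4a4* to *Col4a3* differed by 0.49, from -0.50 and -0.41 to -0.13 and 0.20. In these 3 type IV pairs the KO ratios did not overlap the WT ratios, as for *Col9a1* with *Col19a1* and for *Col6a6* with *Col6a5*. The share of all gene pairs that do so was not taken. Of single genes, 17.6% lay above and 31.8% below both WT arrays on the KO arrays. Among the 3 type IV pairs the difference was smallest for *Col4a1* and *Col4a2*. The exact two-sided permutation p was 0.333 for each type IV pair, the smallest that the design allows. Each probe set has its own response, so only the difference of a ratio between arrays can be read, not its level.

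Outside type IV, *Col9a1* and *Col19a1*, neighbours on chromosome 1, differed in sign, and their ratio differed by 0.49 between the genotypes (exact permutation p = 0.333). *Col6a6* and *Col6a5* on chromosome 9 likewise differed in sign, with a ratio that differed by 0.30 (exact permutation p = 0.333). *Col9a1*, *Col19a1* and *Col6a5* were among the dimmest 40% of genes. The dimmer probe set of *Col6a6* had values of 6.89 and 7.21 in WT and 7.31 and 7.18 in *Hmga2*-KO, which overlapped. That of *Col6a5* had values of 6.60 and 6.66 in WT and 6.53 and 6.44 in *Hmga2*-KO, which did not overlap. The ratio differed less for *Col3a1* and *Col5a2* (0.093, exact permutation p = 0.667), for *Col6a2* and *Col6a1* (0.036, exact permutation p = 1) and for *Col6a5* and *Col6a4* (0.020, exact permutation p = 1), where the ratios of the genotypes overlapped.

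**Figure D3:**
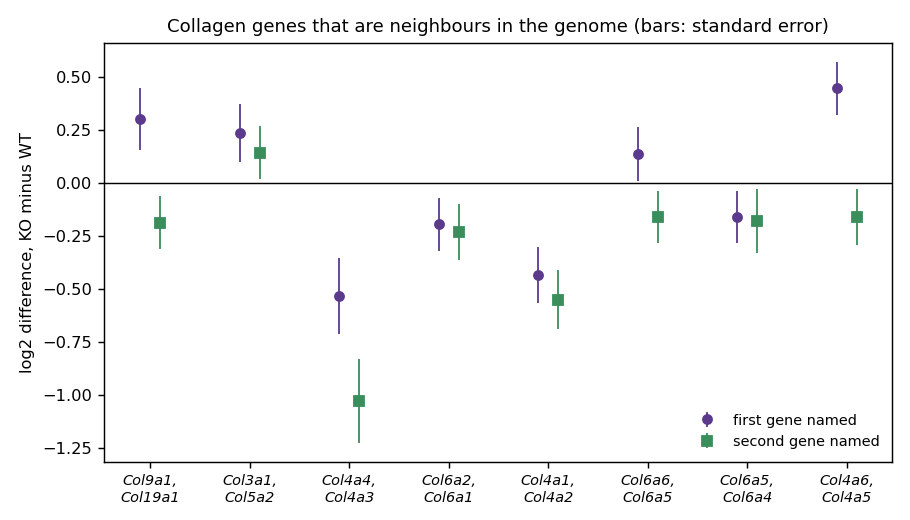
Log2 difference between *Hmga2*-KO and WT (vertical axis) for both genes of 8 neighbouring collagen gene pairs, with limma standard errors as bars. Both genes of *Col4a1* and *Col4a2* lie near -0.5, while *Col4a6* lies at 0.45 and its neighbour *Col4a5* at -0.16.

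The fibrillar genes had mostly higher means in *Hmga2*-KO, by small amounts. Of 11 genes 8 had a higher mean and 3 a lower one, against 8206 and 11732 of all 19938 genes. The median difference was 0.11. On the KO arrays 6 genes were above both WT arrays (17.6% of all genes) and none lay below both (31.8%). With a higher mean 1 gene, *Col11a1*, was past 1.2-fold (13.4% of all genes) and had an unadjusted p under 0.05 (5.88%). *Col11a1* codes for a chain that nucleates cartilage fibrils and is also made by embryonic mesenchyme. Its log2 values were 7.54 and 7.52 in WT and 7.85 and 7.98 in *Hmga2*-KO, and the difference was 0.38 (SE 0.13, limma adjusted p = 0.254). The arrays of each genotype lay closer to each other than the genotypes did.

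*Col1a1* and *Col1a2* code for the chains of type I collagen, the main fibril of connective tissue. *Col1a1* had values of 12.01 and 11.83 in WT and 12.01 and 12.23 in *Hmga2*-KO, a difference of 0.21 (SE 0.15, limma adjusted p = 0.531). *Col1a2* had values of 11.75 and 11.68 in WT and 11.85 and 11.95 in *Hmga2*-KO, a difference of 0.18 (SE 0.13, limma adjusted p = 0.528). For *Col1a1*, KO replicate 1 was level with WT replicate 1, whereas for *Col1a2* the KO arrays were above the WT arrays by about the distance between replicates. *Col3a1*, the chain of type III collagen in extensible tissue, had values of 10.87 and 10.86 in WT and 10.99 and 11.21 in *Hmga2*-KO, a difference of 0.24 (SE 0.14, limma adjusted p = 0.460). Its WT arrays were nearly equal and both KO arrays were above them, KO replicate 2 by more.

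The type V chains, which set fibril diameter, differed by 0.096 for *Col5a1*, 0.14 for *Col5a2* and -0.099 for *Col5a3*. *Col2a1*, the cartilage fibril chain, differed by 0.11, with KO replicate 1 below both WT arrays. *Col27a1* differed by 0.11, *Col11a2* by -0.089 and *Col24a1* by -0.14, and in all 3 the genotypes overlapped. Limma adjusted p for these 7 genes ran from 0.601 to 0.777. Of 12 cartilage markers 7 had higher means in *Hmga2*-KO, with *Acan* at 0.089 and *Matn1* at 0.11. *Acan* had log2 values of 6.57 to 6.70 and *Matn1* of 5.94 to 6.21, below all array medians (7.91 to 8.02). Both were among the dimmest 40% of genes, as were *Matn3*, *Cnmd*, *Comp*, *Epyc*, *Snorc* and *Ucma*. The unadjusted p was under 0.05 for *Cytl1* (1.59, limma adjusted p = 0.0811), *Matn3* (0.49) and, with a lower mean, *Chad* (-0.56). The summed level of the 12 markers, to which *Hapln1*, *Chad* and, on the KO arrays, *Cytl1* gave much, was 11.35 and 11.76 in WT. On the KO arrays it was 11.89 and 11.76. The part of cartilage in the values of *Col2a1*, *Col11a1* and type IX was not tested. Of 10 mesenchymal markers 6 had higher means, with *Pdgfra* at 0.0072, *Vim* at -0.060, *Twist2* at 0.61 and *Dpt* at -0.90 (limma adjusted p = 0.0502 for *Dpt*), and their summed level was 14.92 and 15.03 in WT and 14.89 and 14.81 in *Hmga2*-KO. Of 8 smooth muscle markers 7 had higher means, against 8206 of all 19938 genes, with *Acta2* at 0.16 and *Synpo2* at 0.79. Their summed levels were 13.38 and 13.63 in WT and 13.77 and 13.65 in *Hmga2*-KO. The part of mesenchyme and smooth muscle in the fibrillar values was not tested either.

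The FACIT genes had small differences, and *Col9a1*, *Col19a1* and *Col20a1* were among the dimmest 40% of genes. The mean was higher in *Hmga2*-KO for 3 of 9 genes and lower for 6, and the median difference was -0.031. None had an unadjusted p under 0.05, against 5.88% of all genes with a higher and 8.58% with a lower mean. *Col9a1*, whose type IX chain coats cartilage fibrils, had values of 7.44 and 7.20 in WT and 7.54 and 7.69 in *Hmga2*-KO, a difference of 0.30 (SE 0.15, limma adjusted p = 0.404). The other type IX chains did not follow it: *Col9a2* had values of 8.35 and 8.19 in WT and 8.06 and 8.13 in *Hmga2*-KO, a difference of -0.17 (SE 0.13, limma adjusted p = 0.559), and *Col9a3* differed by 0.052 with overlapping arrays.

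*Col19a1*, the chain of a minor collagen known from muscle and nerve, had values of 6.88 and 6.94 in WT and 6.73 and 6.72 in *Hmga2*-KO, a difference of -0.19 (SE 0.12, limma adjusted p = 0.507). *Col20a1* had values of 7.80 and 7.51 in WT and 7.36 and 7.54 in *Hmga2*-KO, a difference of -0.20 (SE 0.16, limma adjusted p = 0.557), with KO replicate 2 above WT replicate 2. *Col14a1*, which binds type I fibrils, differed by -0.088, *Col16a1* by 0.045 and *Col22a1*, known from muscle-tendon junctions, by -0.031. *Col12a1*, another fibril-associated chain, had values of 9.31 and 8.78 in WT and 9.11 and 8.96 in *Hmga2*-KO, so that its KO arrays lay between the WT arrays and its difference was -0.0031.

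The other collagens were mixed, with lower means for most type VI genes. The mean was higher in *Hmga2*-KO for 5 of 16 genes and lower for 11, with a median difference of -0.11. Past 1.2-fold lay 2 genes with a higher mean (13.4% of all genes) and 3 with a lower mean (17.1%), *Col13a1*, *Col6a3* and *Col25a1*. *Col13a1* codes for a transmembrane collagen of cell adhesion sites. Its values were 9.66 and 9.27 in WT and 8.93 and 8.84 in *Hmga2*-KO, a difference of -0.58 (SE 0.17, limma adjusted p = 0.195). Both KO arrays were below both WT arrays, but the gap between the genotypes was narrower than the distance between the WT arrays.

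Type VI collagen forms beaded microfilaments between basement membrane and fibrils. Of its 6 genes 5 had a lower mean in *Hmga2*-KO, as had 11732 of all 19938 genes, and the median difference was -0.19. For 4 of the 5 both KO arrays were below both WT arrays, as for 31.8% of all genes. *Col6a1* had values of 11.83 and 11.68 in WT and 11.50 and 11.55 in *Hmga2*-KO, a difference of -0.23 (SE 0.13, limma adjusted p = 0.454). *Col6a2* had values of 11.78 and 11.83 in WT and 11.63 and 11.60 in *Hmga2*-KO, a difference of -0.19 (SE 0.12, limma adjusted p = 0.498). Both genes had both KO arrays below both WT arrays, by less than the distance between the WT arrays for *Col6a1* and by more for *Col6a2*. *Col6a3* had values of 11.93 and 11.10 in WT and 10.94 and 11.03 in *Hmga2*-KO, a difference of -0.53 (SE 0.26, limma adjusted p = 0.411). That difference came mainly from WT replicate 1, since without it the difference was -0.11. *Col6a4* differed by -0.18 and *Col6a5* by -0.16, while *Col6a6* differed by 0.14.

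**Figure D4:**
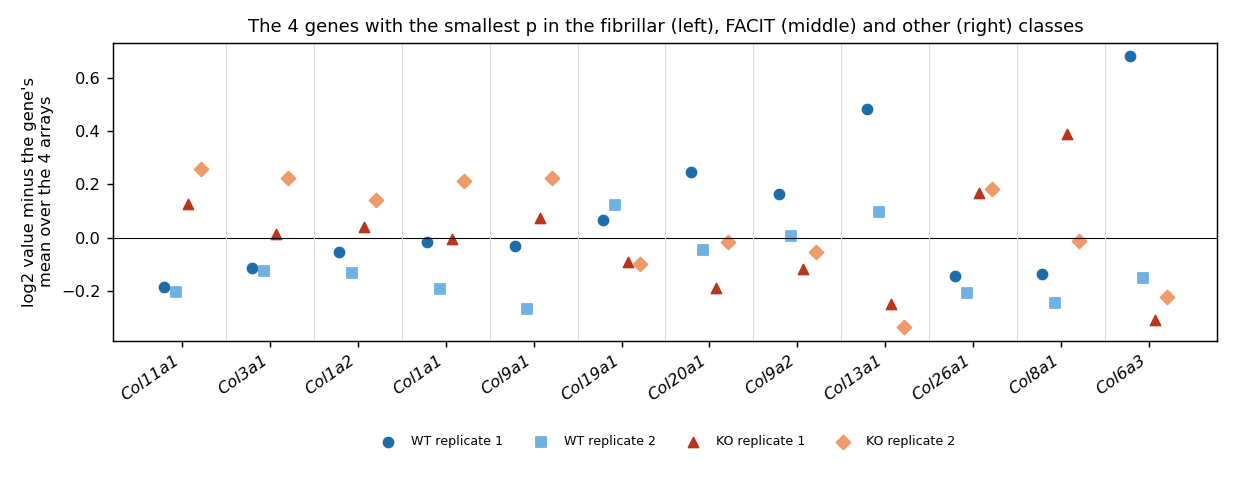
Log2 value on each array minus the mean of the gene over the 4 arrays (vertical axis) for the 4 genes with the lowest p among the fibrillar, FACIT and other collagens; circles and squares are WT arrays, triangles and diamonds KO arrays. *Col11a1* and *Col26a1* have both KO arrays well above both WT arrays, and in *Col6a3* the array of WT replicate 1 stands alone.

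*Col8a1* codes for a short chain of type VIII collagen, made by vessel walls and by the membrane under corneal endothelium. Its values were 7.48 and 7.38 in WT and 8.01 and 7.61 in *Hmga2*-KO, a difference of 0.38 (SE 0.17, limma adjusted p = 0.378). Both KO arrays were above WT, KO replicate 1 by much more than KO replicate 2. *Col26a1* had values of 8.59 and 8.53 in WT and 8.90 and 8.92 in *Hmga2*-KO, a difference of 0.35 (SE 0.12, limma adjusted p = 0.281), with little distance between replicates of either genotype. *Col25a1*, a transmembrane collagen of muscle and nerve, had values of 9.31 and 8.80 in WT and 8.77 and 8.81 in *Hmga2*-KO. The array of WT replicate 1 was the only one well above the rest, and without it the difference went from -0.26 to -0.0084.

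Small differences were found for the rest. *Col7a1*, the anchoring fibril chain of skin, differed by -0.20, *Col10a1*, the chain of hypertrophic cartilage, by 0.15, and *Col17a1*, a transmembrane chain of hemidesmosomes, by -0.0030. *Col23a1* differed by 0.075, *Col28a1* by -0.061 and *Col8a2* by -0.012. The genotypes overlapped for *Col10a1*, *Col17a1* and *Col8a2*, and limma adjusted p for these 6 genes ran from 0.530 to 0.994.

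A collagen chain is hydroxylated, glycosylated and folded in the endoplasmic reticulum, trimmed at its ends outside the cell and then cross-linked. Of 36 genes listed for these steps 33 were measured, with higher means in *Hmga2*-KO for 21 and lower means for 12, and with a median difference of 0.079. At a limma adjusted p under 0.05 none was called in either direction, while the unadjusted p was under 0.05 for 3 genes with a higher mean (5.88% of all genes) and 5 with a lower one (8.58%). Both KO arrays were above both WT arrays for 8 genes, as for 17.6% of all genes, and below both for 8, as for 31.8% of all genes.

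*Pcolce2* codes for an enhancer of the proteinase that trims the C-terminal end of procollagens. Its values were 10.04 and 10.24 in WT and 9.37 and 8.95 in *Hmga2*-KO, a difference of -0.98 (SE 0.18, limma adjusted p = 0.0798). The gap between the genotypes was wider than the distance between replicates of either. Both of the following trimming enzymes had lower means too. *Tll1*, a C-proteinase of the BMP1 family, had values of 7.70 and 7.83 in WT and 7.35 and 7.07 in *Hmga2*-KO, a difference of -0.55 (SE 0.15, limma adjusted p = 0.180). *Adamts14*, an N-proteinase, had values of 8.78 and 8.78 in WT and 8.26 and 8.30 in *Hmga2*-KO, a difference of -0.50 (SE 0.12, limma adjusted p = 0.149). *Bmp1* itself differed by 0.24 and *Adamts3* by 0.031, so the trimming enzymes had no common sign. *Adamts3* had 16 probe sets, and averaged over all of them it differed by 0.20.

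Among the enzymes of the endoplasmic reticulum, *P4ha3*, a prolyl 4-hydroxylase subunit, had values of 8.97 and 10.49 in WT and 11.17 and 10.97 in *Hmga2*-KO. The WT arrays lay farther apart than WT replicate 2 lay from either KO array. Its difference was 1.33 (SE 0.45, limma adjusted p = 0.254), and without WT replicate 1 it was 0.57. *P3h2*, a prolyl 3-hydroxylase that acts on type IV collagen, had values of 9.78 and 10.08 in WT and 10.48 and 10.35 in *Hmga2*-KO, a difference of 0.48 (SE 0.15, limma adjusted p = 0.228). *Tmem38b*, a channel of the endoplasmic reticulum needed for collagen modification, had values of 10.039 and 10.002 in WT and 9.70 and 9.57 in *Hmga2*-KO, a difference of -0.38 (SE 0.13, limma adjusted p = 0.254). For both genes the genotypes stood apart, and *Tmem38b* had the tighter WT arrays. Averaged over its 2 probe sets, *Tmem38b* differed by -0.23 (limma adjusted p = 0.458). The cross-linking enzymes *Lox* and *Loxl1* differed by -0.021 and -0.0092, and the collagen chaperone *Serpinh1* by 0.18.

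Of 10 listed collagen receptors 9 were measured, with higher means in *Hmga2*-KO for 2 and lower means for 7, and with a median difference of -0.19. None was called at a limma adjusted p under 0.05. *Itga1* and *Lair1*, both lower, had an unadjusted p under 0.05, as had 8.58% of all genes in that direction. The integrin chain gene *Itga1*, whose product binds type IV and type I collagen, had values of 11.51 and 11.12 in WT and 10.72 and 10.63 in *Hmga2*-KO, a difference of -0.64 (SE 0.17, limma adjusted p = 0.162). *Itga2*, the chain of the other main collagen-binding integrin, had values of 11.10 and 10.93 in WT and 10.76 and 10.65 in *Hmga2*-KO, a difference of -0.31 (SE 0.14, limma adjusted p = 0.363). In both, WT replicate 1 was highest and KO replicate 2 lowest. *Lair1*, an inhibitory receptor of leukocytes, had values of 6.62 and 6.37 in WT and 6.11 and 6.18 in *Hmga2*-KO, a difference of -0.35 (SE 0.14, limma adjusted p = 0.342). *Itgb1*, the partner of both integrin chains, differed by -0.040, and the discoidin receptors *Ddr1* and *Ddr2* by -0.19 and 0.26.

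**Figure D5:**
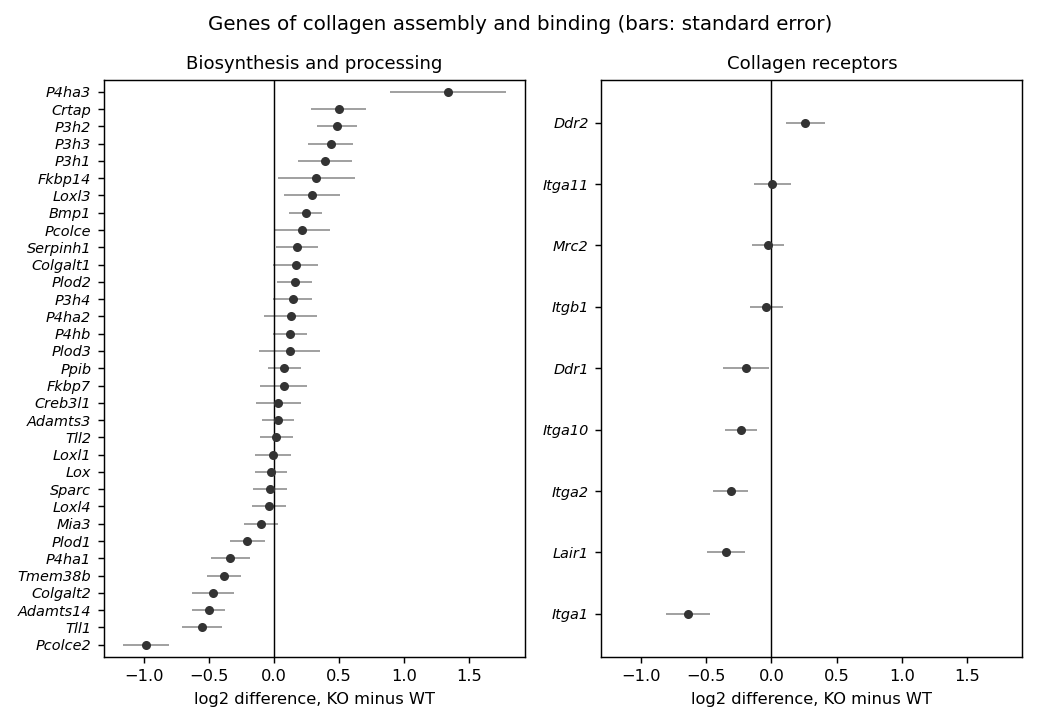
Log2 difference between *Hmga2*-KO and WT (horizontal axis) for 33 genes of collagen biosynthesis and processing (left) and 9 collagen receptor genes (right), with limma standard errors as bars. *P4ha3* (1.33) and *Pcolce2* (-0.98) lie farthest from zero among the former, and *Itga1* (-0.64) among the latter.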

How the data were processed

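The deposited table held log2 expression values of 30177 probe sets on 4 arrays, made by the authors with RMA, which corrects background, normalises between arrays and summarises probes, in Affymetrix Expression Console, per the labels (versions not given in the sources used here). Symbols came from GEO's platform annotation: 21789 probe sets had 1 symbol, 1621 several and 6767 none, and only the first kind was used. The 19938 genes, each by its brightest probe set, were tested by limma 3.58.1 under R 4.3.3 (functions lmFit and eBayes, no covariate, residual df 2, prior df 4.42), with Benjamini-Hochberg adjustment over all genes and a threshold of 0.05. The test was checked on simulated arrays with normal noise of the same spread for all genes and arrays. That check does not show how the test behaves at the unequal spread of the real arrays. Named genes were all members, with full statistics for the 4 of each class with the lowest p and the 4 with the highest mean, the 6 and 3 lowest p of the biosynthesis and receptor lists, both genes of the type IV pairs, and markers that define a cell type. The members and lists were chosen with earlier results of these data known. Alternatives were a replicate block, median centring, cyclic loess, averaging a gene's probe sets, leaving out the dimmest 40% of genes, eBayes with trend and robust, an adjusted p under 0.10 and leaving out each array. Array medians ran from 7.91 to 8.02, and RMA keeps no detection call, so dim genes could not be marked as absent. Promoter windows were taken from RefSeq (GRCm38.p6) and searched on both strands for the letters CCAAT, the GC box GGGCGG, the TATA box TATAAA and the core CTTTGAT, none of which contains another. Tables were joined with pandas 2.3.3 and figures drawn with matplotlib 3.10.9.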

Additional observations from a re-analysis of the deposited data

How the results depend on the processing

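The count of 0 collagen genes past an adjusted p of 0.05 depended on the setting. It was 2 with a replicate block (*Col18a1* and *Col4a3*), where 3.02% of all genes were called, against 0.782% in the main fit. Without the dimmest 40% of genes it was 2 (the same genes, of 36 members left), against 2.52% of the 11963 genes left. It was 1 after median centring (1.47% of all genes) and 1 after cyclic loess (1.76%), *Col18a1* each time. At an adjusted p under 0.10 the count was 2. It was 0 with the mean of all probe sets (0.737% of all genes) or with trend and robust (0.983%). The deviations of same-numbered arrays correlated at -0.238, so the numbers do not pair the arrays. The crossed pairing, chosen after seeing the data, called 1 (*Col18a1*), against 2.57% of all genes. Leaving out 1 array gave 0 to 11 calls, with 11 without WT replicate 2, 2 without WT replicate 1 and 0 without either KO array. In each such fit a lone array was assumed to vary like the other genotype's arrays, and over all genes the calls went from 156 to 6292 without WT replicate 2, 1638 without WT replicate 1, and 1 and 0 without a KO array. For biosynthesis and processing genes, 0 calls became 2 with the replicate block (*Pcolce2* and *P4ha3*), 1 each (*Pcolce2*) with the crossed pairing, median centring, cyclic loess, the dim genes left out and the adjusted p under 0.10, and 0 to 16 with 1 array left out (16 without WT replicate 2, 6 without WT replicate 1). The median difference of all collagen genes ran from -0.092 to 0.028 with 1 array left out, that of fibrillar genes from 0.095 to 0.18, that of FACITs from -0.16 to 0.033 and that of other collagens from -0.11 to -0.016, and the last was -0.045 after cyclic loess and -0.19 without dim genes. The basement membrane median ran from -0.37 without WT replicate 2 to -0.20 without WT replicate 1, and it was -0.48 for type IV alone. Of 530 values of 54 genes under these settings, 475 kept direction and side of the threshold, 38 passed it and 17, in 11 genes, changed sign. After cyclic loess these were *Col8a2* (0.036), *Col17a1* (0.055), *Col28a1* (0.0076) and *Hmga2* (-0.0058). With 1 array left out, differences ran from -0.017 to 0.24 for *Col2a1*, -0.20 to 0.023 for *Col11a2*, -0.28 to 0.011 for *Col24a1*, -0.061 to 0.17 for *Col9a3*, -0.27 to 0.26 for *Col12a1*, -0.095 to 0.033 for *Col22a1*, -0.030 to 0.33 for *Col10a1*, -0.088 to 0.082 for *Col17a1* and -0.076 to 0.18 for *Hmga2*. The 54 genes were the 44 members, *Hmga2*, and the 6 and 3 genes of lowest p in the biosynthesis and receptor lists. Markers and the other genes named were not counted, and some of them changed sign too. Examples after cyclic loess are *Adamts3* (-0.024), *Pdgfra* (-0.041) and *Cdh1* (-0.022). *Serpinh1* was at -0.0057 and *Krt18* at -0.11 without WT replicate 1, and *Ddr1* at 0.031 and *Loxl1* at 0.098 without WT replicate 2. The cause of these changes was not tested. No depth can be given for arrays, and their number limits the precision.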
